A study of Rattus norvegicus with 448 samples.

Results

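The acute phase genes Crp, Hp, Lcn2 and A2m and the transcription factor gene Stat3 were followed across the livers of outbred rats. These 5 genes were taken by their gene identifiers from the 16796 genes of the deposited table. Liver was collected from rats aged 17 weeks and snap-frozen, and Trizol-extracted RNA was sequenced as 37 bp paired-end reads. The study mapped metabolic traits in this population, and it looked for liver genes under nearby genetic influence that might mediate them. All libraries form 1 group, for which the labels give no sex, diet, treatment, genotype or infection status. Of 448 liver libraries in the labels, 430 were matched to a column of values and the other 18 are not analysed here.

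The acute phase response is the change in the secreted proteins of the liver during infection, injury or inflammation. In hepatocytes interleukin-6 activates the transcription factor STAT3, which works with C/EBP and NF-kB factors at the promoters of acute phase genes. Rats differ from humans in which proteins respond most: C-reactive protein is made by the unchallenged rat liver, and alpha-2-macroglobulin is a main inducible acute phase protein of the rat. STAT3 is activated by phosphorylation, so the level of its mRNA is not a measure of its activity.

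Identifiers and levels are those of the deposited table. It names no unit, and the levels were read as FPKM, that is fragments per kilobase of a gene after scaling between libraries. Levels of different genes can be compared only as far as that reading holds. The members are Hp (ENSRNOG00000014964), Crp (ENSRNOG00000000053), Stat3 (ENSRNOG00000019742), Lcn2 (ENSRNOG00000013973) and A2m (ENSRNOG00000028896). Correlations and spreads were computed on log2(FPKM + 1), a scale that understates changes of genes near or under 1 FPKM. A gene was tested as a response where it reached 1 FPKM in at least 10% of libraries, which 12234 genes did. Hp, Crp, Stat3 and Lcn2 were among them. A2m was not, and it entered the tests only as a predictor or in a fit with no filter. The table pairs no gene identifier with a symbol and no other gene could be named, so the labelled tissue was not checked against hepatocyte markers and the share of blood cells in the tissue was not measured.

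RefSeq promoter windows (250 bases before to 50 after the gene start, build GRCr8) were found for 3 of the 5 members, Crp, Lcn2 and Stat3. Both strands of each window were searched for TTCNNNGAA (STAT) and TTGCNNAA (C/EBP), the motif letters of 2 kinds of factor named above. The first 100 bases of the Lcn2 window are shown because they hold the only match to these 2 patterns, TTGCTCAA at position -191 relative to the gene start, which is in capitals. They lie at chr3:36081931-36082030 on the minus strand, and run from position -250 to position -151.
Lcn2: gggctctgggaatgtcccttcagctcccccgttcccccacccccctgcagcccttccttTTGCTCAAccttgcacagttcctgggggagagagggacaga
The C/EBP letters occur in 10.6% and the STAT letters in 8.9% of the 33469 promoter windows. A match is a description of letters and not of binding, and a window with no match says only that these letters are not in it. Letters of the NF-kB motif were also searched, with a match in the Lcn2 window, and that search is not shown here. Its share over all windows is not given, so that match has no background to be read against. Hp and A2m were not matched to a window.

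The depth of a library was recovered from the fixed steps between its values. Recovered counts per library ran from 184602 to 60691302, with a median of 24371806, a lower quartile of 19544207 and an upper quartile of 28397627. A library had 7108 to 16613 genes above 0. The 22 libraries (5%) with the fewest genes above 0 had 184602 to 9205662 counts, against 7346451 to 60691302 in the other 408. The main comparisons are given with these 22 libraries and with them left out.

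The median levels of the 5 genes in liver ran from 3933 FPKM for Hp to 0.03982 FPKM for A2m. The quartile ranges of Hp, Crp and Stat3 lay apart, while those of Lcn2 and A2m overlapped. The lower quartile of Lcn2 was 0.06035 FPKM and the upper quartile of A2m was 0.07415 FPKM. Hp encodes haptoglobin, the plasma protein that captures free haemoglobin, and it ranked 6 by mean level among all genes of the table. Its lowest library had 2001 FPKM, its median was 3933 FPKM and its highest library had 14150 FPKM. The quartiles were 3416 and 4848 FPKM, and 412 libraries (95.8%) lay within 2-fold of the median. The 5 highest libraries, LSW_441, LSW_271, LSW_344, LSW_225 and LSW_196, had 14150, 12590, 11630, 11080 and 10490 FPKM. LSW_42 followed closely with 10120 FPKM. The 5 highest all belonged to the 22 libraries with the fewest genes, and none of the other 408 libraries was above 8957 FPKM.

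Crp encodes C-reactive protein, a pentraxin that binds phosphocholine on microbes and damaged cells, and it ranked 138 by mean level. Its lowest library had 51.65 FPKM, its median was 699.4 FPKM and its highest library had 1340 FPKM, with quartiles of 504.6 and 819 FPKM. Its distribution was drawn out downward, with a skewness of -2.01 on the log2 scale against a median of -0.26 over all tested genes. There were 22 libraries 4-fold or more below the median and none 4-fold or more above it. They are not the same set as the 22 libraries with the fewest genes: LSW_242, with 103.9 FPKM, is not in the latter. The lowest library, LSW_225, had 51.65 FPKM of Crp beside 11080 FPKM of Hp and 9.166 FPKM of Stat3. The highest, LSW_166, had 1340 FPKM of Crp but only 245222 counts in all.

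Stat3, whose product carries interleukin-6 signals to the nucleus, ranked 2672. Its level was 2.912 FPKM in the lowest library, 26.24 FPKM at the median and 82.46 FPKM in the highest, with quartiles of 22.2 and 31.39 FPKM. It was within 2-fold of the median in 419 libraries (97.4%). The highest library, LSW_175, stood alone: the next highest, LSW_433, had 55.25 FPKM. In LSW_175 Hp had 3069 FPKM and Crp 716.2 FPKM, which ranked 389 and 202 of 430 from the highest. Lcn2 had 2.534 FPKM and A2m 0.1956 FPKM there, which ranked 30 and 8, so these 2 genes were also high. The lowest Stat3 level, 2.912 FPKM in LSW_271, rested on 8 counts.

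Lcn2 encodes lipocalin-2, which binds bacterial siderophores and so withholds iron, and which neutrophils store as well as hepatocytes make it. It was listed at 0 in 97 libraries and reached 1 FPKM in 127. Its quartiles were 0.06035 and 1.137 FPKM, its median was 0.2158 FPKM and its highest library had 7.479 FPKM. Beyond the 97 libraries at 0, 64 libraries had up to 0.1 FPKM, 65 had 0.1 to 0.25 and 31 had 0.25 to 0.5. Another 46 had 0.5 to 1, 80 had 1 to 2, 41 had 2 to 4 and 6 had more. In a typical library 1 count of Lcn2 was 0.04529 FPKM, so the lowest of these ranges rested on few counts. The 5 highest libraries were LSW_4, LSW_12, LSW_297, LSW_13 and LSW_49, with 7.479, 6.006, 5.317, 5.111 and 4.739 FPKM. None of these was among the 22 libraries with the fewest genes. In bulk tissue, fewer cells of a type and less RNA per cell cannot be told apart.

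A2m encodes alpha-2-macroglobulin, a broad protease inhibitor of plasma. It was at the floor of detection in these livers, with a median of 0.03982 FPKM, quartiles of 0.02245 and 0.07415 FPKM and a highest value of 0.4385 FPKM in LSW_75. It was listed at 0 in 31 libraries and reached 1 FPKM in none. The recovered count had a median of 4 and a highest value of 66, so a difference between most pairs of libraries was not detectable at this depth. The highest A2m library had Lcn2 listed at 0, with 3240 FPKM of Hp, 700.6 FPKM of Crp and 28.04 FPKM of Stat3. Of the 43 libraries (10%) with the highest A2m, 5 were among the 43 with the highest Lcn2, 6 among those with the highest Hp, 5 among those with the highest Stat3 and 1 among those with the highest Crp. These are 11.6%, 14.0%, 11.6% and 2.3%, where unrelated genes would share about 10%. The 43 libraries with the lowest A2m held 15 of the 43 with the highest Hp. Of the 22 libraries with the fewest genes, 11 were among these lowest A2m libraries and 20 among these highest Hp libraries.

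**Figure D1:**
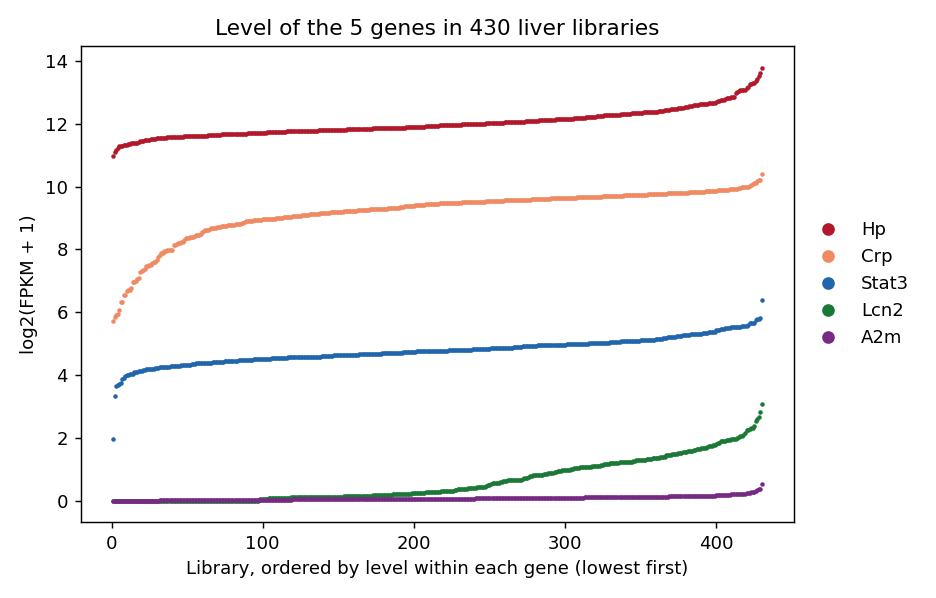
Level of each of the 5 genes as log2(FPKM + 1) on the vertical axis, against the libraries ordered by level within that gene on the horizontal axis; each point is 1 of 430 libraries. Hp and Stat3 are flat except at their ends, Crp falls away in its lowest libraries to 51.65 FPKM, Lcn2 climbs over the upper part of its range, and A2m stays at or under 0.4385 FPKM.

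The order of the 4 highest levels, Hp, Crp, Stat3 and Lcn2, was the same in all 430 libraries, and the place of A2m was not. Hp exceeded Crp in 430 of 430 libraries, by a median of 5.596-fold with a range from 2.935-fold to 214.6-fold. Crp exceeded Stat3 in 430 of 430, by a median of 23.95-fold (2.943-fold to 55.42-fold). Stat3 exceeded Lcn2 in 430 of 430. Only the last neighbours exchanged places: Lcn2 exceeded A2m in 313 libraries, A2m exceeded Lcn2 in 106, and both were listed at 0 in 11.

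Relative to other genes, Crp and Lcn2 varied widely between livers and Hp and Stat3 did not. The SD of log2(FPKM + 1) was 0.79 for Crp and 0.68 for Lcn2, against 0.43 for Hp and 0.42 for Stat3 and a median of 0.38 over the tested genes (quartiles 0.29 and 0.52). At its mean level, a gene had a typical SD of 0.40 on the log2 scale in the case of Crp and also 0.40 in that of Lcn2. The excess over that value was at percentile 93.9 of all tested genes for Crp and at percentile 88.8 for Lcn2. Counting noise made up 3.5% of the variance of Lcn2 and 25.9% of that of A2m, as estimated from the recovered counts. The recovered counts of Lcn2 were even in 94.4% of libraries, against 52.8% for A2m, so 2 counts of Lcn2 may be 1 read pair and its noise share may be understated by up to 2-fold. Without the 22 libraries with the fewest genes the SD of Crp was 0.59, that of Hp 0.35 and that of Stat3 0.38, while Lcn2 had 0.68.

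The libraries with the fewest genes above 0 held much of the extreme Hp and Crp values. In these 22 libraries Hp had a median of 8677 FPKM (5573 to 14150), against 3817 FPKM (2001 to 8957) in the other 408. Crp had a median of 106 FPKM (51.65 to 1340), against 711.2 FPKM (103.9 to 1175). The ranges overlapped for both genes. Of the 43 libraries (10%) with the highest Hp, 20 were among these 22, as were 19 of the 43 with the lowest Crp. For Stat3 it was 10 of the 43 lowest and 0 of the 43 highest, and for Lcn2 it was 2 of the 43 highest.

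Hp also followed the number of genes above 0 among the remaining libraries. The correlation with that number was -0.773 for Hp, 0.516 for Crp, 0.400 for Stat3, 0.019 for Lcn2 and, with no filter, 0.123 for A2m. The value for Hp was at percentile 0.3 of all tested genes. Over the 408 libraries it was -0.875, at percentile 0.1, while Crp had 0.475, Stat3 0.370 and Lcn2 -0.128. These correlations are given without a test, since the number of genes above 0 is counted from the same table and the test called 31.37% of unchanged genes on simulated data. The part of depth and RNA quality in the levels of Hp and Crp was not tested.

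**Figure D2:**
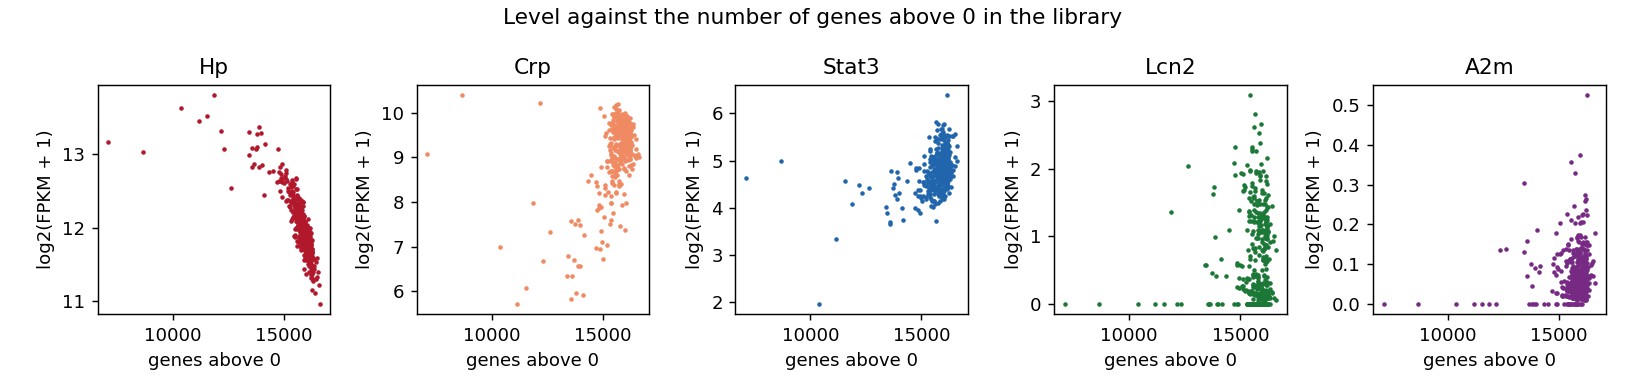
log2(FPKM + 1) of each gene on the vertical axis against the number of genes above 0 in the library on the horizontal axis, with 1 point for each of 430 libraries. Hp descends with that number (r = -0.773) over the whole range, Crp is low in most of the libraries at the left, and Lcn2 has r = 0.019 although it is listed at 0 in 12 of the 22 libraries furthest left.

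The first question was whether Stat3 mRNA and the acute phase genes varied together. Crp was higher and Hp was lower in livers with more Stat3 mRNA, and Lcn2 did not pass the test. Per SD of Stat3, Crp rose by 0.442 ± 0.0318 (SE) and Hp fell by 0.196 ± 0.0185 (SE) on the log2 scale, n = 430. The adjusted p-values from limma, with Benjamini-Hochberg adjustment over all genes, were 8.54e-36 and 3.49e-23. Hence 2 of 3 tested members were called, where 86.7% of all genes were called with Stat3. A larger correlation with Stat3, in either direction, was found for 15.3% of genes in the case of Crp and for 35.0% in that of Hp. Libraries are taken as independent by these tests, while neighbouring titles were alike and the labels do not say that each library is a separate animal.

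For Stat3 and Crp, Pearson's r was 0.557 (95% interval 0.488 to 0.619) and Spearman's rho was 0.531. Both had a two-sided permutation p of 1e-05, the smallest that 100000 permutations can give. Within 4 blocks of libraries, cut by the order of their titles, r was 0.460, 0.606, 0.557 and 0.560. It was 0.554 without the 2 libraries farthest from the median of Stat3 and 0.5 when the 22 libraries with the fewest genes were left out. With the number of genes above 0 as a covariate r was 0.446. Of the 43 libraries with the lowest Crp, 21 were also among the 43 with the lowest Stat3, and 9 libraries were in the highest 43 of both.

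For Stat3 and Hp, r was -0.457 (95% interval -0.529 to -0.379) and rho was -0.389, again with permutation p-values of 1e-05. The 4 blocks gave r from -0.594 to -0.356. Without the 2 libraries farthest in Stat3 r was -0.428, and without the 22 libraries it was -0.356. With the number of genes above 0 as a covariate r moved to -0.254. No library was in the highest 43 of both Hp and Stat3, and 16 were in the highest 43 of Hp and the lowest 43 of Stat3.

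Hp and Crp, the 2 members with the highest mRNA levels, moved in opposite directions in the fit with no covariates. Crp fell by 0.492 ± 0.03 (SE) on the log2 scale per SD of Hp, with a limma adjusted p of 7.34e-47. With Hp as predictor, all 3 other tested members were called (Lcn2 at an adjusted p of 0.0239), where 89.6% of all genes were called. With Crp as predictor 2 of 3 were called, where 90.7% of all genes were. Pearson's r between Hp and Crp was -0.620 (95% interval -0.675 to -0.558) and rho was -0.396, both with a permutation p of 1e-05. It was smaller in size without the 22 libraries (r = -0.489), on normal scores (r = -0.384) and with genes above 0 as a covariate (r = -0.407). The blocks gave r from -0.749 to -0.407, and leaving out the 2 libraries farthest in Hp gave -0.610. Of the 43 libraries lowest in Crp, 27 were among the 43 highest in Hp.

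**Figure D3:**
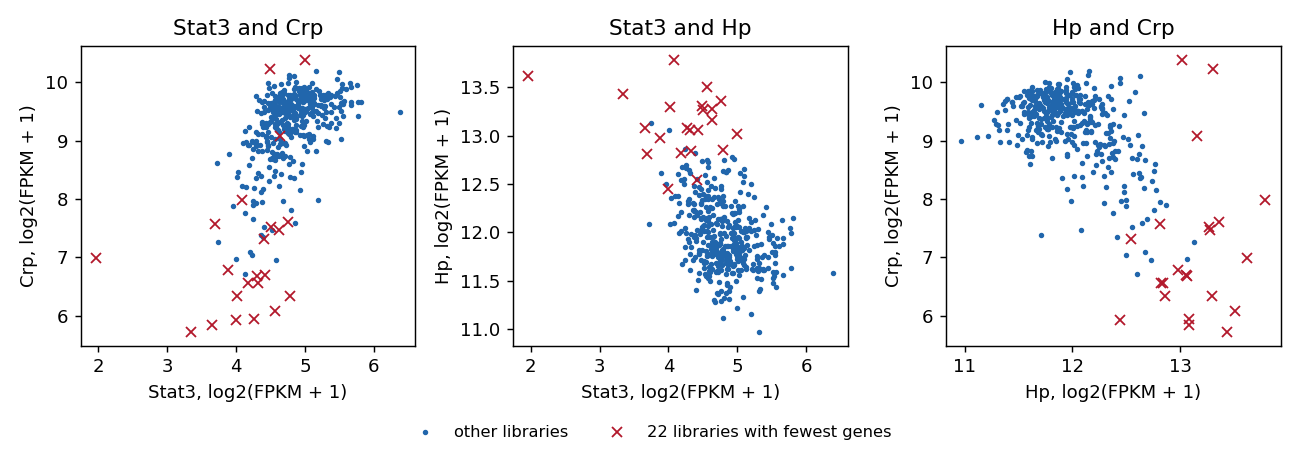
Stat3 and Crp, Stat3 and Hp, and Hp and Crp plotted against each other as log2(FPKM + 1), with 1 point for each of 430 libraries and crosses for the 22 libraries with the fewest genes above 0. Crp rises with Stat3 (r = 0.557), while Hp falls with Stat3 (r = -0.457) and Crp falls with Hp (r = -0.620); most crosses lie at the low end of Crp and all lie at or above 5573 FPKM of Hp.

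None of these 3 relations kept its direction and call once the main axes of variation over all genes were held fixed. The first principal component of all tested genes carried 45.7% of the total variance and the first 5 carried 59.2%. The first component held 75.3% of the variance of Crp, 66.7% of that of Hp and 41.1% of that of Stat3, but 1.3% of that of Lcn2 and 0.4% of that of A2m. With the first 5 components as covariates, r between Stat3 and Crp was 0.005 (limma adjusted p = 0.945). That between Stat3 and Hp turned to 0.227 (adjusted p = 2.34e-05), and that between Hp and Crp turned to 0.379 (adjusted p = 3.08e-14). In these fits 40.5% of all genes were called with Stat3, and 43.1% with Hp. A larger correlation with Hp than that of Crp, in either direction, was found for 1.5% of genes. The components are computed from all genes, the members included. When the 22 libraries were also removed, the values were -0.044, 0.153 and 0.225. In that fit 12% of genes had a larger correlation with Hp than Crp had.

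The correlations of Lcn2 with Hp, Crp and Stat3 were smaller in size than those among these 3 genes. As predictor it gave no call among the 3 other tested members, where 27.0% of all genes were called. With Hp r was 0.111 (95% interval 0.016 to 0.203; rho 0.126; permutation p = 0.022 and 0.0092), and the limma adjusted p was 0.0679 with Lcn2 as predictor and 0.0239 with Hp as predictor, so the call of this pair differed between the fits. The slope of Hp was 0.0476 ± 0.0206 (SE) on the log2 scale per SD of Lcn2. This value crossed the threshold without the 22 libraries (r = 0.188, adjusted p = 0.00109), yet r was -0.041 in the second block of titles and 0.128 to 0.171 in the other 3. With Crp r was -0.051 (95% interval -0.145 to 0.044; rho -0.061; permutation p = 0.29 and 0.21). With Stat3 r was 0.052 (95% interval -0.043 to 0.146; rho 0.065; permutation p = 0.28 and 0.18). The second block alone gave 0.243 with Stat3 (limma adjusted p = 0.0165) and the other 3 gave -0.086 to 0.079. With 5 components as covariates Lcn2 remained uncalled with all 3, where 0.294% of all genes were called.

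A2m as predictor gave no call among the other 4 members, where 7.42% of all genes were called. With Hp r was -0.119 (95% interval -0.211 to -0.025; rho -0.187; permutation p = 0.014 and 0.00012; limma adjusted p = 0.1). With Stat3 r was -0.001, with Crp -0.007 and with Lcn2 -0.023. Their permutation p-values were 0.98, 0.88 and 0.63. A2m was listed at 0 in 11 of the 22 libraries with the fewest genes, where Hp was high, and in 20 of the other 408. With the number of genes above 0 as covariate, r between A2m and Hp was -0.038 (limma adjusted p = 0.703).

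**Figure D4:**
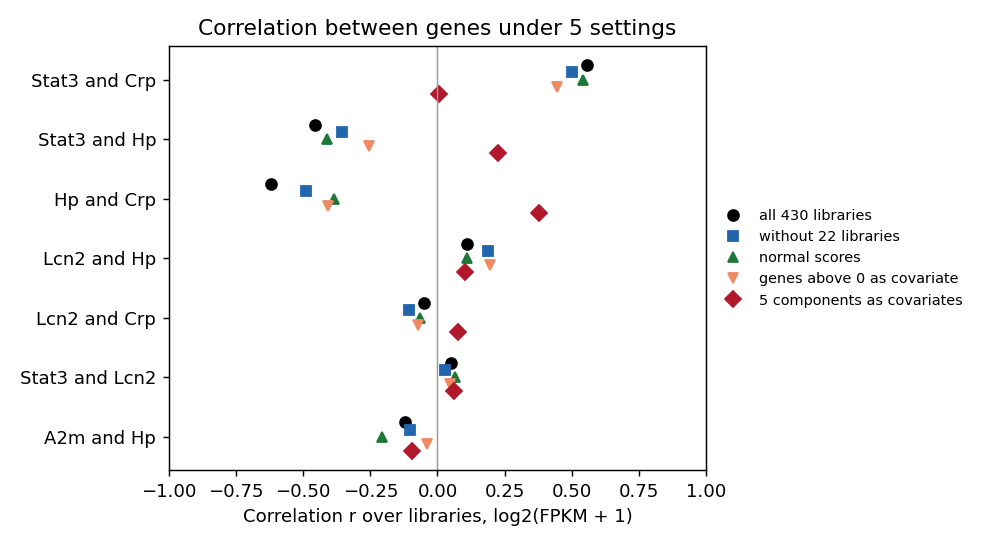
Pearson r over libraries on the horizontal axis for 7 pairs of the genes on the vertical axis, under 5 settings shown by symbol: all 430 libraries, without 22 libraries, normal scores, genes above 0 as covariate, and 5 principal components as covariates. Stat3 and Hp go from -0.457 to 0.227 and Hp and Crp from -0.620 to 0.379 when the components are added, and the pairs with Lcn2 stay between -0.104 and 0.197.

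The genes whose levels were most like those of Hp and Crp followed them closely, and no gene was close to Lcn2 or A2m. The highest r with Hp was 0.948 (ENSRNOG00000015518, mean 4220 FPKM), and the highest with Crp was 0.938 (ENSRNOG00000029360, mean 94.3 FPKM), over 430 libraries. For Stat3 the highest r with any gene was 0.776, for Lcn2 0.325 and for A2m 0.324. The gene farthest from Lcn2 was ENSRNOG00000048870, with r = -0.413, rho = -0.357 and 4.33 to 59.37 FPKM (median 19.99). It stayed the lowest without the 22 libraries (-0.447) and with 5 components as covariates (-0.531). The lowest r of any gene was -0.900 with Crp, -0.838 with Hp, -0.694 with Stat3 and -0.287 with A2m. These genes were selected as extremes of a ranking, so the values are descriptions.

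The study's identifier for a liver has a first and a second part, and 193 libraries shared the first part with another library: 83 first parts with 2 libraries and 9 with 3. Its meaning is not explained in the labels. Libraries that shared it had like levels of Lcn2. Its intraclass correlation, the share of variance between first parts, was 0.402 (limma moderated F test, adjusted p = 0.000108), at percentile 93.4 of all tested genes and against a median of 0.211. Hp had 0.292 (adjusted p = 0.00465), Crp 0.253 (adjusted p = 0.00909) and Stat3 0.232 (adjusted p = 0.018). All 4 tested members were called, where 59.8% of all genes were called as well. A2m, in the fit with no filter, had 0.059 (adjusted p = 0.358).

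Without the 22 libraries the 4 members parted. Lcn2 had 0.403 (limma adjusted p = 0.000261) and Hp 0.271 (adjusted p = 0.0188), Stat3 missed the threshold with 0.204 (adjusted p = 0.0634), and Crp had -0.056 (adjusted p = 0.680). In that fit 27.4% of all genes were called. With 5 components as covariates in addition, Crp had 0.216 (adjusted p = 0.0284). Over all alternatives Lcn2 lay between 0.320 and 0.462.

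Pairs of libraries give the same contrast on the scale of levels. In 110 pairs that shared the first part, r between the members of a pair was 0.470 for Lcn2, 0.292 for Hp, 0.241 for Crp, 0.303 for Stat3 and 0.123 for A2m. In 2350 pairs with different first parts and titles at most 6 apart it was 0.063 for Lcn2, 0.186 for Hp, 0.148 for Crp, 0.152 for Stat3 and 0.035 for A2m. Without the 22 libraries the contrast turned for Crp, with -0.031 in 100 sharing pairs and 0.187 in 2113 neighbouring pairs, and it kept its direction for Lcn2 (0.477 and 0.069), Hp (0.309 and 0.240), Stat3 (0.307 and 0.126) and A2m (0.103 and 0.028). Pairs that shared the first part were also close in title (median gap 3). The median difference in Lcn2 was 0.20 on the log2 scale in the sharing pairs and 0.57 in the neighbouring pairs. Both libraries reached 1 FPKM of Lcn2 in 20 sharing pairs, neither did in 66, and a single library did in 24, so 78.2% were alike. Among neighbouring pairs 60.6% were alike. A library can belong to several pairs, so no p is given for them.

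Some of the highest Lcn2 libraries show what this looks like. LSW_4 (7.479 FPKM) shared its first part with LSW_1 (2.813 FPKM, rank 23 of 430). LSW_12 (6.006 FPKM) went with LSW_15 (1.23 FPKM), and LSW_13 (5.111 FPKM) with LSW_10 (1.968 FPKM). All 3 partners were above the upper quartile of 1.137 FPKM. The resemblance was not complete: LSW_431 had 3.979 FPKM and its partner LSW_428 was listed at 0. LSW_53 and LSW_51 had 3.887 and 3.179 FPKM, and the third library of that first part, LSW_55, had 0.1515 FPKM.

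**Figure D5:**
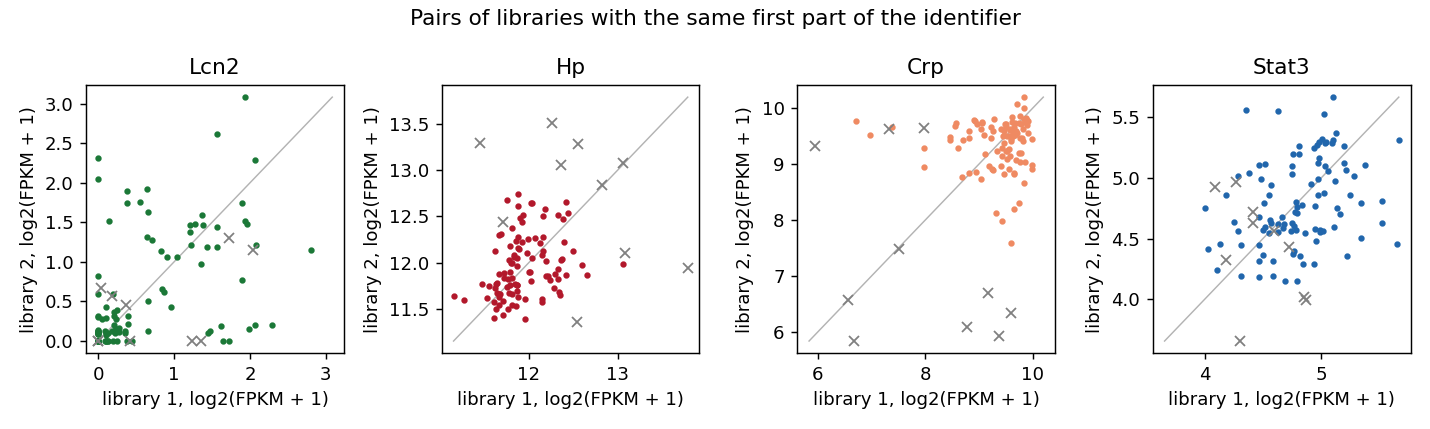
Pairs of libraries with the same first part of the identifier, with 1 library of a pair on each axis as log2(FPKM + 1), for Lcn2, Hp, Crp and Stat3; there are 110 pairs, the line marks equal levels, and crosses are pairs with a library among the 22 with the fewest genes. Lcn2 pairs gather at the low end and along the line (r = 0.470). Many low Crp values lie off the line, but some pairs are low together, such as LSW_389 and LSW_391 (93.52 and 93.37 FPKM). That pair is one of the crosses.

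Along the title numbers, which may follow an order of handling that the labels do not describe, Lcn2 alone of the 4 tested members was called, where 8.18% of all genes were called. It fell by 0.0739 ± 0.025 (SE) on the log2 scale per 100 titles (r = -0.141, limma adjusted p = 0.0426). This call was lost under 4 alternatives, with adjusted p-values up to 0.177. Crp had r = -0.074 (adjusted p = 0.399), Hp -0.008 (adjusted p = 0.957) and Stat3 -0.036 (adjusted p = 0.751). A2m, with no filter, had 0.055 (adjusted p = 0.590).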

How the data were processed

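STAR, Picard, featureCounts and DESeq2 stand in the submitters' processing notes, with no versions or roles; for build, annotation and strandedness the entry is: not given in the sources used here. Values per gene and library, as deposited by the authors, were read as FPKM, scaled by them between libraries, from the values themselves because the header of the deposited table names no unit. Within a gene and library they were multiples of a fixed step, whole for 98.45% of values and whole after doubling for 100.0% (tolerance 0.001), so recovered counts are a reconstruction: a step may be a read pair for some genes and a single read for others. The steps follow a median-ratio size factor (coefficient of variation of step times factor 0.0002, against 0.083 for step times total). A further 1 column of values, not tied to any labelled library, stayed out. Intervals and counting noise cover sampling error only.

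The members and lists were chosen with earlier results of these data known. Tests used log2(FPKM + 1), a filter of 1 FPKM in 10% of libraries, limma 3.58.1 in R 4.3.3 with a variance trend, and Benjamini-Hochberg adjustment over all genes at 0.05. Resemblance within the first part of the identifier was fitted with a spline of title number (4 degrees of freedom). Intervals of r are Fisher intervals. The text names the 5 members and, by identifier, the genes with the highest or lowest r with a member, at most 2 on each side. Gene lists and cell type markers had been set by symbol, and none was used because the tables at hand pair no symbol with these identifiers.

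On simulated data with 12234 genes, the association test recovered 83 of 100 genes at 0.1 log2 per SD and 99 of 100 at 0.2. The trend test recovered 75 and 98 of 100 at these sizes, per SD of the title number and not per 100 titles. The resemblance test recovered 36 of 100 at an intraclass correlation of 0.3 and 96 of 100 at 0.6. Unchanged genes were called in 0.66%, 0.08% and 0.04% by the association, trend and resemblance tests. The simulated noise was independent between genes and libraries. In the data the first component carried 45.7% of the variance, so these rates may not hold there. The test on genes above 0 called 31.37% of unchanged genes, so its values are given as description. Alternatives were other pseudocounts and filters, upper quartile rescaling, normal scores, covariates, blocks of titles and subsets of libraries. The components together with the removal of 22 libraries were chosen after seeing the data.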

Additional observations from a re-analysis of the deposited data

How the results depend on the processing

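Of the alternatives tried, 321 values stayed on their side of the threshold, within their error or, for counts of genes, near the main count. A further 44 moved, 10 reversed, 8 newly passed and 7 no longer passed. A change of sign between values that both missed the threshold was not counted as reversed and is among the 321. An example is Lcn2 and Crp, with r = 0.078 with 5 components and -0.051 in the main fit. The cause was not tested except where fewer genes were tested. With 5 principal components as covariates, r was 0.005 for Stat3 and Crp, 0.227 for Stat3 and Hp and 0.379 for Hp and Crp; with the 22 libraries with the fewest genes also left out it was -0.044, 0.153 and 0.225. Stat3 and Lcn2 passed in the second block of titles alone (0.243). Lcn2 and Hp passed with a pseudocount of 5 (0.125), without the 22 libraries (0.188) and with genes above 0 as covariate (0.197). A2m and Hp passed after upper quartile rescaling (-0.14) and on normal scores (-0.207).

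The correlation with the number of genes above 0 was 0.309 for Crp and -0.884 for Hp on normal scores. With 5 components it was -0.308 for Crp, -0.602 for Hp and 0.044 for Stat3. With components and without the 22 libraries it was -0.208 for Crp and -0.022 for Stat3. Without the 22 libraries alone it was -0.875 for Hp and -0.128 for Lcn2. The intraclass correlation was -0.056 for Crp and 0.204 for Stat3 without the 22 libraries, and 0.143 for Stat3 with components in addition. The trend of Lcn2 missed the threshold with a pseudocount of 0.5 (-0.132), on normal scores (-0.136), with 5 components (-0.114) and with 1 library per first part of the identifier (-0.132). With components and without the 22 libraries the trend passed for Crp (-0.222), Hp (-0.142) and Stat3 (0.142, reversed).

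A filter at 10 FPKM left fewer genes and called 604 with A2m, 5708 with Crp, 5623 with Hp, 1727 with Lcn2 and 5498 with Stat3, 4230 for resemblance and 592 for trend; it gives no test of Lcn2 itself. With 5 components 5343 genes were called with Crp, 5271 with Hp, 36 with Lcn2, 4955 with Stat3 and 3079 for trend. With the 22 libraries also left out these were 5387, 4919, 26, 1119 and 3436. Without the 22 libraries alone 603 were called with A2m, 6175 with Lcn2, 3355 for resemblance and 1528 for trend. Normal scores called 3879 with A2m, genes above 0 as covariate 5265 with Lcn2, and 1 library per first part 1084 with Lcn2 and 459 for trend. The main counts were 908 with A2m, 11099 with Crp, 10962 with Hp, 3305 with Lcn2, 10605 with Stat3, 7319 for resemblance and 1001 for trend.

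The SD on the log2 scale was 0.116 (A2m) and 0.961 (Lcn2) with a pseudocount of 0.5, and 0.014 (A2m), 0.229 (Lcn2) and 0.361 (Stat3) with 5. It was 0.587 (Crp), 0.347 (Hp) and 0.382 (Stat3) without the 22 libraries, 0.41 (Hp) after upper quartile rescaling, and 0.318 (Crp), 0.229 (Hp), 0.642 (Lcn2) and 0.286 (Stat3) after removal of 5 components. Low counts limit Lcn2 and A2m: the median was 4 for each, but 94.4% of Lcn2 counts were even, so its 4 counts may be 2 read pairs.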
